A study of Mus musculus with 20 samples.

Results

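In all, 10 mouse genes were examined whose annotated transcripts carry stretches of common sequence and took very high counts in TKO cells on day 8: Slc38a6, D10Wsu102e, Noct, Rab3gap1, Gm9864, Gm10040, Gm11127, Olfr784, Lrrc8d and Kif24. They are 10 of the 35975 genes with matched transcripts, and they hold 43 of the 119414 transcripts in the tables. The 10 genes were chosen on their TKO day 8 (D8) counts, so every comparison with TKO D8 is a description with no test. Within each gene the transcript with the highest mean TKO D8 count is called its leading transcript. The comparison asks how much of a gene's count lay on the leading transcript and how much on the transcripts of the same gene that lack the common sequence.

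Retrotransposons such as the LTR elements of the intracisternal A particle (IAP) family are present in many near-identical copies in the mouse genome, and many copies lie inside or beside the exons of ordinary genes. DNA methylation and histone H3K9 methylation keep most of them silent in embryonic stem cells and in differentiated cells. A short read from such a copy fits every annotated transcript that holds the same letters, and an estimator such as kallisto divides it among them. No repeat annotation was used here, so the family of the common sequence was not assigned.

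The libraries come from the mouse embryonic stem cell line E14 (ES-E14TG2a), as WT cells and as cells of a genotype labelled TKO, whose targeted genes the labels do not name. Stem cells were kept in serum with LIF on gelatin and differentiated towards neural progenitors in N2B27 medium on laminin. Cells were collected at D0, D2, D4, D6 and D8, with 2 biological replicates for each genotype and day, 20 libraries in 10 groups. All libraries come from 1 laboratory line, the labels do not say whether TKO is 1 clone, and p-values measure only the spread between these samples.

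Libraries held 26015282 to 38074768 estimated counts each. Counts of Dnmt1, the maintenance DNA methyltransferase, were 293 to 484 CPM (counts per 1e+06 after TMM scaling) in WT libraries and 74.8 to 96.7 in TKO libraries. Dnmt3a was lower in TKO on every day, with 607 and 611 CPM in WT and 65.8 and 62.8 in TKO at D2. Dnmt3b was lower in TKO from D0 to D6, with 1448 and 1325 in WT and 110 and 112 in TKO at D2. At D8 Dnmt3b was higher in TKO, at 94.1 and 82.4 against 55 and 38.3 in WT. Summed CPM of the 6 stem cell markers was 10.5 to 17 in WT and 116 to 154 in TKO at D6, and 43.2 to 63.4 in WT and 808 to 850 in TKO at D8. The 6 neural progenitor markers summed to 1277 to 1335 in WT and 993 to 1106 in TKO at D6, and to 1314 to 1356 in WT and 545 to 546 in TKO at D8, with none of either list at 0 in these groups. The 6 endoderm markers summed to 16.9 and 23 in WT (Afp at 0) and 277 and 306 in TKO at D0, to 21.2 and 24.7 in WT and 247 and 338 in TKO at D2, and to 14.7 and 11 in WT and 47.3 and 61.5 in TKO at D6. The 6 neuron markers summed to 197 and 253 in WT and 386 and 368 in TKO (Nhlh2 at 0) at D0. At D2 they summed to 270 and 277 in WT (Nhlh2 at 0) and 448 and 410 in TKO, and at D4 to 328 and 347 in WT and 229 and 215 in TKO. At D6 the neuron sums were 710 and 649 in WT and 1056 and 1348 in TKO, and at D8 3333 and 3356 in WT and 884 and 879 in TKO. The endoderm sums at D8 were 74.3 and 46.5 in WT and 47.7 and 76.8 in TKO. The 6 trophoblast markers summed to 66.7 and 64.1 in WT and 191 and 180 in TKO at D6. They were also higher in TKO at D2 (29.2 and 31 against 21.3 and 20.3) and D8 (239 and 235 against 136 and 138). They were lower in TKO at D0 (95.9 and 93.9 against 175 and 168) and D4 (25.2 and 22.5 against 31.8 and 37.3). Tpbpa was at 0 in both genotypes at D0 and D2 and in WT at D4. The 6 mesoderm markers summed to at most 18.8 in any library. The part of these differences in cell makeup in the results below was not tested. In bulk RNA, fewer cells of a type and less RNA per cell cannot be told apart.

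The common sequence was defined as stretches of 31 bases (31-mers), read in either orientation, that occur in the leading transcripts of at least 2 of the 10 genes. There were 5004 of them. A run of 36 bases was held by 8 of the 10 leading transcripts, all but those of Gm9864 and Gm10040. It occurred in 39 of 116640 annotated transcripts searched (0.0334%), from 36 genes, 18 in the orientation shown and 21 in the other. The 3 windows below, from exons of non-coding transcripts on 3 chromosomes in GRCm38 (GENCODE M21), show how closely these places match; the capitals mark the 36 bases.
Rab3gap1-205, chr1:127875293-127875412, plus strand, exon 4: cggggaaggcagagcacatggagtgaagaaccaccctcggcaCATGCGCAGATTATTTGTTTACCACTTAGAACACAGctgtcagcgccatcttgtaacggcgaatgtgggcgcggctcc
Lrrc8d-205, chr5:105729270-105729389, plus strand, exon 2: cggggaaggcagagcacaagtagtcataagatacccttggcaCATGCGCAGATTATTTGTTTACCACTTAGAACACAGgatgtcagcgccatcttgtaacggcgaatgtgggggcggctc
Kif24-204, chr4:41454741-41454860, minus strand, exon 2: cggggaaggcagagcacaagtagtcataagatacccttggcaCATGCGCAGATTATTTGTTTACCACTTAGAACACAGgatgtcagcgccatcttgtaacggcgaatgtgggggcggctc

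The Lrrc8d-205 and Kif24-204 windows are the same letters on different chromosomes, and the 2 transcripts share 370 31-mers. Rab3gap1-205 holds the 36 bases at bases 265 to 300 and again at bases 1594 to 1629.

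Gm9864-201 and Gm10040-201, both annotated as pseudogenes, hold another part of the sequence. They share 1237 31-mers with each other and none with Rab3gap1-205, Gm11127-201, Olfr784-202, Lrrc8d-205 or Kif24-204. They meet the other members through Slc38a6-208, Noct-202 and D10Wsu102e-201, which hold both parts. The window below shows the link; the 79 bases in capitals occur in Gm9864-201, Gm10040-201, Slc38a6-208 and Noct-202.
Gm9864-201, chr2:107595792-107595930, minus strand, exon 3: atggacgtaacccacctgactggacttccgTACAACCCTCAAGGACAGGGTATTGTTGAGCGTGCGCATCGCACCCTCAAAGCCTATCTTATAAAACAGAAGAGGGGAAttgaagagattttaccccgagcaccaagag

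Slc38a6-208, which is 3927 bases long, held the common sequence over bases 400 to 3735, nearly all in its 3′ UTR in exon 5 on chromosome 12 (84.1% of its length). Aligned to it with BLAST, Noct-202 matched over 3376 bases at 97.4% identity in the opposite orientation, and D10Wsu102e-201 over 3339 bases at 93.8% in the same orientation. Rab3gap1-205 and Olfr784-202 matched over 1333 bases at 97.1% and 1403 bases at 93%. Gm11127-201, Lrrc8d-205 and Kif24-204 each matched a piece of 326, 387 and 403 bases between bases 400 and 785 of Slc38a6-208, at 92.3%, 89.9% and 92.1% identity. Gm9864-201 and Gm10040-201 each matched a piece of 382 bases, at bases 2005 to 2386, at 96.3% and 97.6%. Most of the sequence that Gm9864-201 and Gm10040-201 have in common did not align to Slc38a6-208. No 31-mer was common to all 10. Relative to Slc38a6-208 the sequence ran in the opposite orientation in Noct-202, Gm9864-201, Gm10040-201 and Gm11127-201, and in the same orientation in the other 5.

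**Figure D1:**
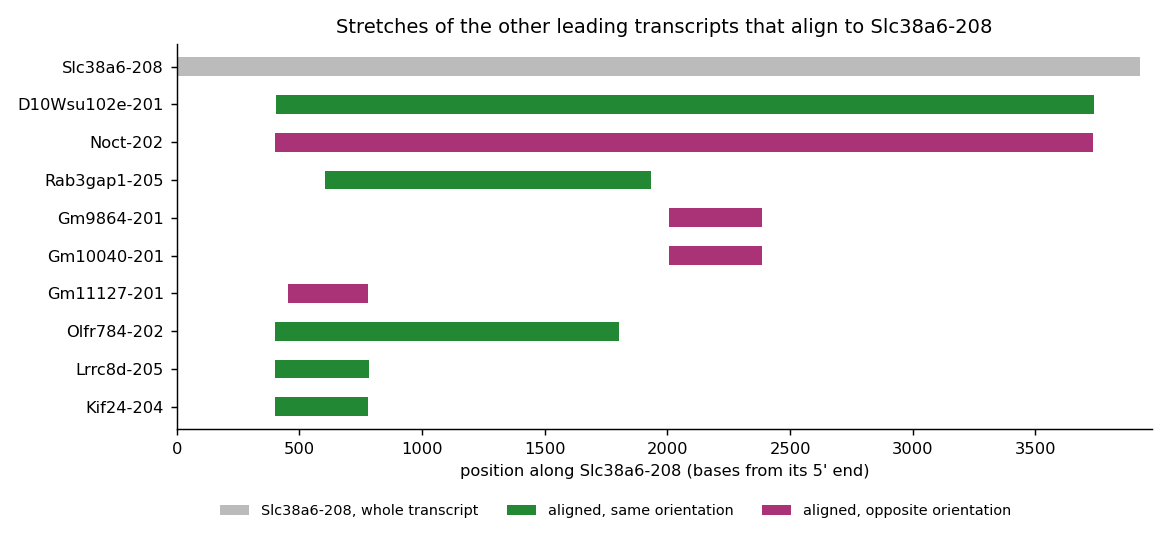
Stretches of each leading transcript that align to Slc38a6-208, by position in bases from the 5′ end of Slc38a6-208 (grey bar, 3927 bases); green is the same orientation and purple the opposite. Noct-202 and D10Wsu102e-201 cover 84.9% of it, and Gm9864-201 and Gm10040-201 lie apart from Gm11127-201, Lrrc8d-205 and Kif24-204.

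The place of the sequence in the gene model differed between members. It lay in the 3′ UTR of D10Wsu102e-201 (chromosome 10, exon 4 of a transcript of 123179 bases, 3.23% of its length) and of Olfr784-202 (chromosome 10, an olfactory receptor gene, 35.5%). In Noct-202 (chromosome 3), a transcript of nocturnin, a circadian phosphatase of NADP(H), it lay in the 5′ UTR in exon 1 (45.2%). Gm11127-201 (chromosome 17) held 100 coding and 202 3′ UTR bases of it. Rab3gap1-205 (chromosome 1), Lrrc8d-205 (chromosome 5) and Kif24-204 (chromosome 4) are non-coding processed transcripts of coding genes, with 70.4%, 11.8% and 52.6% of their length in common sequence. Rab3gap1 encodes the catalytic subunit of the Rab3 GTPase-activating complex, Lrrc8d a subunit of volume-regulated anion channels, Kif24 a centriolar kinesin and Slc38a6 a member of an amino acid transporter family. Gm9864-201 (chromosome 2) and Gm10040-201 (chromosome 3) had 95.6% and 93.4% of their length in 31-mers found in another leading transcript, most of them 31-mers that the pair share with each other.

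In TKO D8 libraries the leading transcripts were among the most counted of all transcripts. Genes and leading transcripts were both chosen on these counts, so high ranks there follow from the choice. Slc38a6-208 had 14518 and 14656 CPM in TKO and 172 and 178 in WT. D10Wsu102e-201 had 13924 and 13523 in TKO and 425 and 399 in WT, and Noct-202 had 12276 and 12226 in TKO and 185 in both WT libraries. By mean count these were the transcripts ranked 1, 2 and 3 in TKO D8, against 568, 113 and 521 in WT D8. Rab3gap1-205 had 3971 and 4187 in TKO and 28.7 and 27.8 in WT, and ranked 7 in TKO and 6400 in WT. Gm9864-201 had 1382 and 1401 in TKO and 13.7 and 13.1 in WT. Gm10040-201 had 824 and 857 in TKO and 5.02 and 5.53 in WT. The ratios of the means for the last 3 were 144, 104 and 159.

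The other 4 leading transcripts reached lower levels in TKO D8 and were still far above WT. Gm11127-201 had 317 and 358 CPM in TKO and 0.337 and 0.216 in WT. Olfr784-202 had 279 and 289 in TKO and 4.37 in both WT libraries. Lrrc8d-205 had 183 and 198 in TKO and 7.17 and 6.58 in WT, a ratio of means of 27.7, the lowest of the 10. Kif24-204 had 184 and 196 in TKO and 1.45 and 1.43 in WT. The lowest of the 10 by TKO D8 count were Lrrc8d-205 and Kif24-204, at ranks 700 and 703. Per length, in TPM, D10Wsu102e-201 stood at 178 in TKO D8 against 6190 for Slc38a6-208, and its rank was 691 in place of 2 by count.

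**Figure D2:**
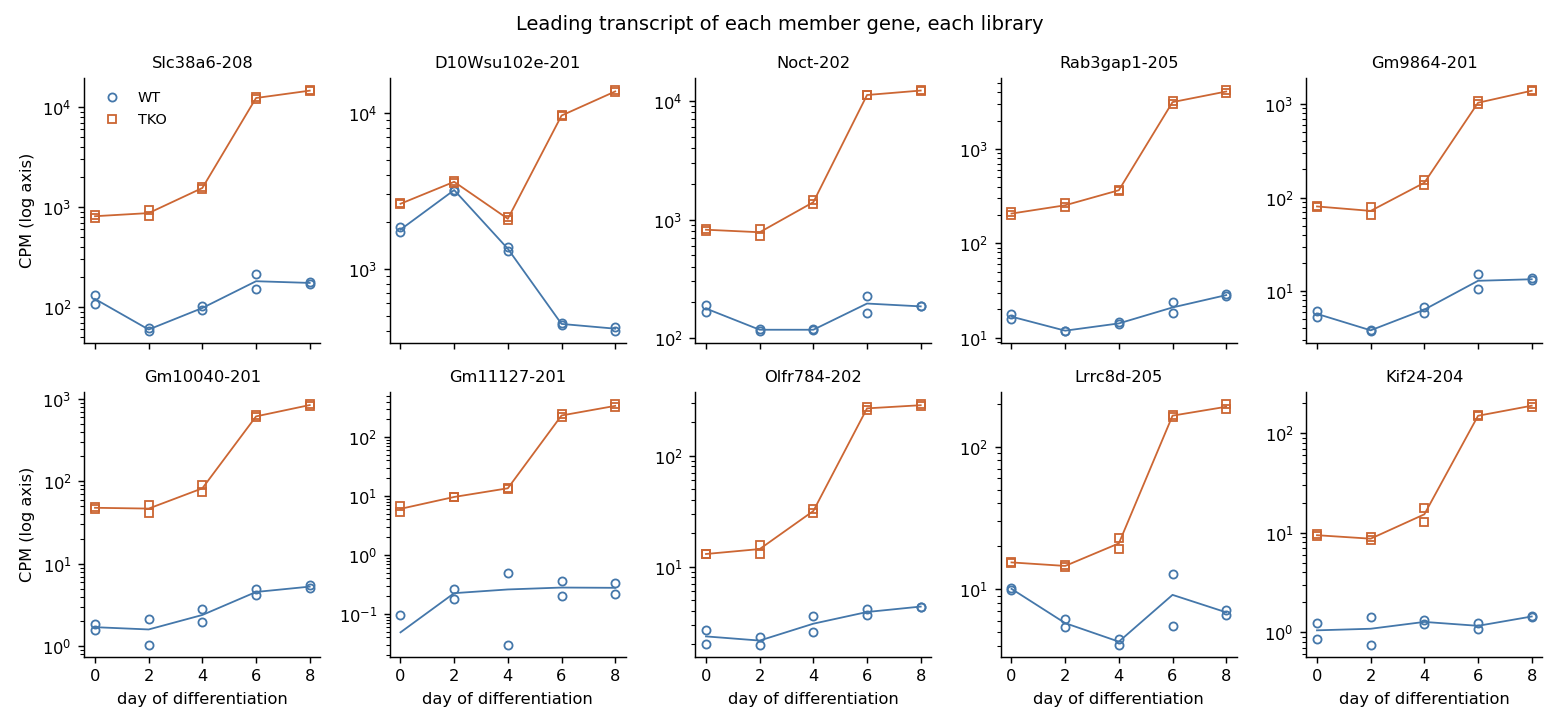
CPM of the leading transcript of each gene (log axis, each panel with its own scale) by day, with 1 point for each library and a line through the mean of the 2 replicates; WT is blue circles and TKO orange squares. At D6 and D8 the TKO libraries lie above the WT libraries in all 10 panels, where D8 is the day the genes were chosen on. The WT D0 library in which Gm11127-201 had 0 counts is not drawn.

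The transcripts of the same genes that lack the common sequence did not show the rise of the leading transcript. Of the 43 member transcripts, 14 held common sequence and 29 did not; those 29 belong to 6 genes, and the single one of Olfr784 had 0 counts at D8. Noct-204, which holds common sequence, had 667 and 682 CPM in TKO D8 and 17.2 and 20.1 in WT D8. Counts of the transcripts without common sequence were summed for each of the other 5 genes and scaled to CPM with the factors of the gene sums, which differ from those of the transcripts. For Slc38a6 the sum was 10.1 and 10.8 CPM in TKO D8 and 10.2 in both WT D8 libraries. For Lrrc8d it was 62.3 and 61.3 in TKO and 62.5 and 66.5 in WT, and for Kif24 22.1 and 22.8 in TKO and 24.2 and 21.7 in WT. The sum was higher in TKO for Rab3gap1, at 40.3 and 40.4 against 31.1 and 31.4, and for Noct, at 5.1 and 3.92 against 2.33 and 2.07. With the factors of the transcripts, as used for the leading transcripts, the Lrrc8d sum was 61.2 and 60.1 in TKO and 56.8 and 59.8 in WT. On that scale the Slc38a6 sum was 9.88 and 10.6 in TKO and 9.24 and 9.22 in WT. Both sums were thus slightly higher in TKO with no overlap on that scale, and the order of the genotypes for Lrrc8d turns with the scaling. In TKO D8 the leading transcript took 99.9% of all Slc38a6 counts and 99% of all Rab3gap1 counts in both libraries, and 89.5% and 89.8% of Kif24 counts. In WT D8 those shares were 94.7% and 94.8%, 48.7% and 48%, and 6.18% and 6.81%.

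**Figure D3:**
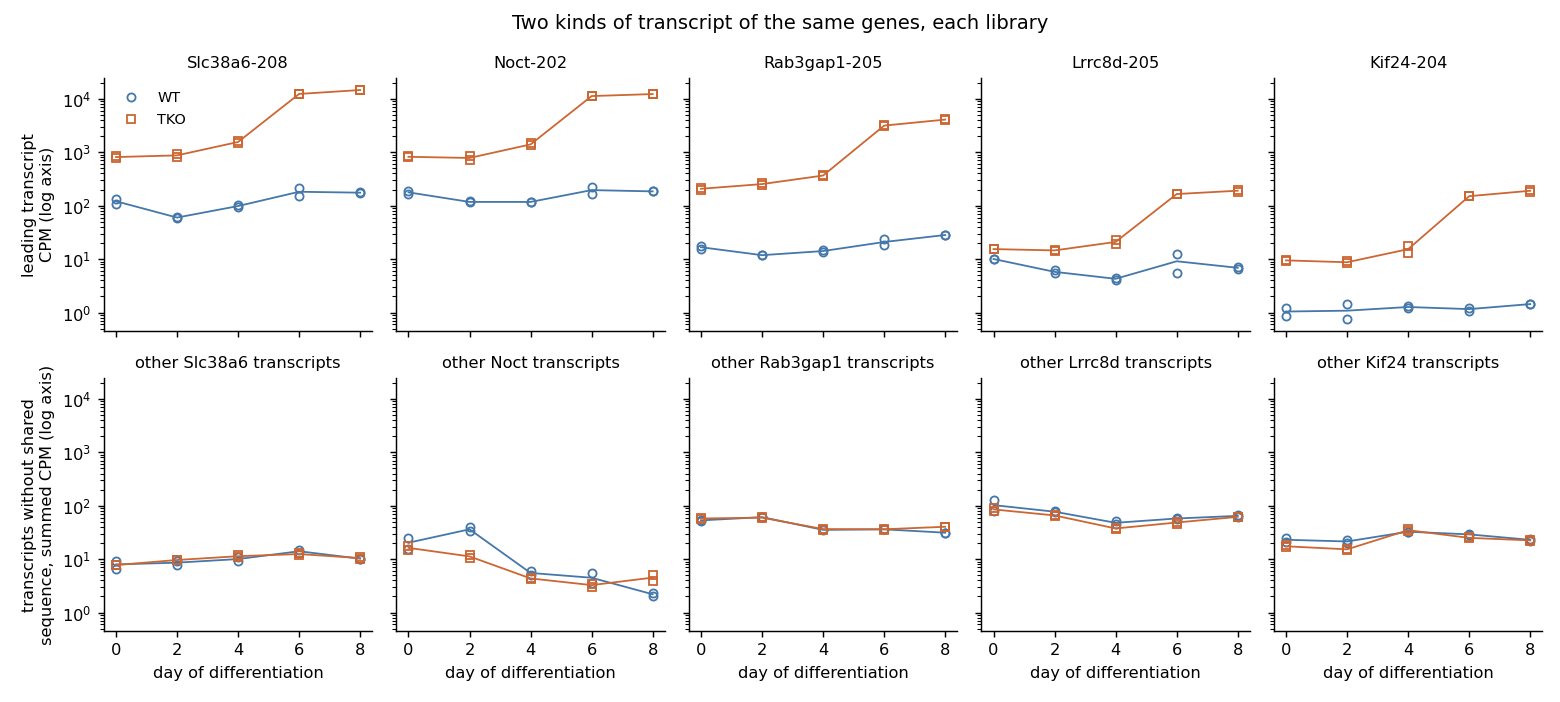
Leading transcript (top) and summed transcripts without common sequence (bottom) of the 5 genes that have both with counts, in CPM on 1 log axis for all panels (top with the scaling factors of the transcripts, bottom with those of the gene sums), by day, with 1 point for each library and a line through the group mean; WT is blue circles and TKO orange squares. TKO and WT part in the top row and lie closer together in the bottom row. There Noct parted most, lower in TKO at D2 (11.9 and 10.6 against 33 and 39.3 in WT) and higher at D8 (5.1 and 3.92 against 2.33 and 2.07). Kif24 was lower in TKO at D0 (16.6 and 18.2 against 25 and 21.1) and at D2 (15.1 and 15.4 against 20.3 and 22.5). Rab3gap1 was higher in TKO at D8 (40.3 and 40.4 against 31.1 and 31.4).

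Days D0 to D6 were not used to choose the genes and were tested. With edgeR's quasi-likelihood test on all 66407 transcripts that passed the filter, all 10 leading transcripts entered, and all 10 would also have passed it on WT libraries alone. At D0, 9 of 10 were higher in TKO at an adjusted p under 0.05, where 4.23% of all transcripts tested were called higher. At D2, D4 and D6 all 10 were higher, where 3.27%, 1.97% and 3.92% of all transcripts were. Reads of the common sequence are divided among these 10, so their calls are not independent of each other. Fitted on only the groups compared, 7, 8, 9 and 10 were higher on the 4 days, with the calls of D10Wsu102e-201 (D0 and D2), Gm11127-201 (D0 and D4) and Kif24-204 (D2) lost. With single D2 libraries left out, 8 or 9 were higher at D2. Their median log2 difference was 2.96, 3.45, 3.79 and 6.20 on the 4 days, against 0.00 over all transcripts on each.

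Slc38a6-208, the most counted of them, had 842 and 782 CPM in TKO and 133 and 109 in WT at D0, and 12161 and 12476 in TKO and 213 and 151 in WT at D6. The groups did not overlap on either day. The log2 difference was 2.75 (SE 0.139, edgeR adjusted p 1.69e-07) at D0 and 6.08 (SE 0.162, edgeR adjusted p 2.13e-10) at D6. Noct-202 had 834 and 807 in TKO and 190 and 165 in WT at D0, and 11245 and 11231 in TKO and 228 and 163 in WT at D6. Its log2 difference was 2.21 at D0 and 5.84 at D6. Rab3gap1-205 had 216 and 198 in TKO and 17.7 and 15.7 in WT at D0, and 3036 and 3264 in TKO and 23.6 and 18.2 in WT at D6. Its log2 difference went from 3.63 to 7.23 (SE 0.126, edgeR adjusted p 3.66e-12). Slc38a6-208 and Rab3gap1-205 have 705 31-mers in common in the same orientation, and Noct-202 has 2452 and 758 in common with them in the opposite orientation only. How the estimator divided reads among them was not tested.

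The 2 pseudogenes started from lower counts and larger ratios. Gm9864-201 had 79.8 and 81.2 CPM in TKO and 5.31 and 6.12 in WT at D0, a log2 difference of 3.82, and 1071 and 998 in TKO against 15.3 and 10.5 in WT at D6, a difference of 6.32. Gm10040-201 had 46.4 and 49 in TKO and 1.55 and 1.85 in WT at D0, a difference of 4.81, and 631 and 594 in TKO against 4.92 and 4.17 in WT at D6, a difference of 7.07. Although neither holds the 36-base run, both were higher in TKO on all 4 tested days.

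D10Wsu102e-201 and Lrrc8d-205 differed least between genotypes in the stem cells. D10Wsu102e-201 had 2626 and 2594 CPM in TKO and 1839 and 1723 in WT at D0, a log2 difference of 0.55 (SE 0.0449, edgeR adjusted p 1.2e-05). At D2 it had 3547 and 3673 in TKO and 3170 and 3220 in WT, a difference of 0.18 (edgeR adjusted p 0.0406), which lost its call without any one of the 4 D2 libraries (0.15 to 0.20). At D6 it had 9669 and 9550 in TKO and 446 and 438 in WT, a difference of 4.44. Lrrc8d-205 had 15.3 and 15.5 in TKO and 9.9 and 10.2 in WT at D0; the 2 groups did not overlap, but the log2 difference of 0.62 did not pass (SE 0.251, edgeR adjusted p 0.188). At D2 its difference was 1.33 (edgeR adjusted p 0.00895), a call lost without WT D2 replicate 1 (1.24) or replicate 2 (1.43). At D6 it had 168 and 162 in TKO and 12.7 and 5.53 in WT, a difference of 4.18.

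Kif24-204 had 9.31 and 9.62 CPM in TKO and 1.23 and 0.86 in WT at D0, and 149 and 152 in TKO and 1.23 and 1.09 in WT at D6, log2 differences of 3.17 and 7.01. Olfr784-202 had 13.1 and 12.9 in TKO and 2.69 and 2.02 in WT at D0, and 259 and 273 in TKO and 4.17 and 3.64 in WT at D6, differences of 2.46 and 6.09. Gm11127-201 was nearly absent from WT stem cells, with 2.7 and 0 estimated counts in the 2 WT D0 libraries against 145 and 177 in TKO. Scaled to library totals the D0 ratio was 116, from 322 TKO and 3 WT counts, rounded and summed over the 2 libraries of each group. The exact 95% counting interval of 39.3 to 565 treats these estimates as read counts and covers counting error only. It leaves out the division of reads and the spread between replicates. At D6 it had 220 and 244 CPM in TKO and 0.36 and 0.199 in WT, and its log2 difference was 9.66 (SE 0.45, edgeR adjusted p 3.67e-08).

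The step from D4 to D6 in TKO cells was shared by all 10. In TKO the D6 mean was 4.6 times the D4 mean for D10Wsu102e-201, 17.2 times for Gm11127-201 and 7.16 to 9.82 times for the other 8. From D0 to D2 and from D2 to D4 the TKO ratios ran from 0.579 to 2.21, and from D6 to D8 from 1.07 to 1.45. In WT the D4 to D6 ratios of the 10 ran from 0.329 to 2.13. The genotype difference at D6 was tested against that at D0 in the same fit, a test added after the values were seen. For 9 of 10 leading transcripts it was larger at D6, by 2.27 to 3.89 on the log2 scale, where 2.33% of all transcripts tested were called in that direction. For Gm11127-201 the increase of 2.83 (SE 1.62) did not pass (edgeR adjusted p 0.425).

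Of the 4 other member transcripts with common sequence, Noct-204 was higher in TKO on all 4 days, by 1.76, 2.51, 2.56 and 4.98 on the log2 scale. It had 59 and 49 CPM in TKO and 17 and 15 in WT at D0, and 691 and 730 in TKO and 26.4 and 18.4 in WT at D6. The other 3, from Slc38a6 and Rab3gap1, were called on none of the 4 days and stayed under 4 CPM in every library.

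Transcripts without common sequence gave another picture on the same days. Of the 29, 17 passed the filter. At D0, D4 and D6 none of the 17 was called in either direction by edgeR, with 2, 1 and 0 of them at an unadjusted p under 0.05, and their median log2 difference was -0.02, 0.03 and -0.06. DESeq2 called 2 lower at D0 and none at D4 or D6. Of all transcripts tested, edgeR called 3.18%, 1.87%, 1.15% and 2.37% lower on the 4 days. At D2, 1 was higher (Kif24-207, at 0.287 and 0.246 CPM in TKO and 0 in both WT libraries) and 1 was lower (Kif24-202, at 13.9 and 11.8 in TKO and 16.1 and 21.3 in WT). The spread of single transcripts was wide: Noct-203 had a log2 difference of 0.45 at D6 with SE 1.24. A transcript that was not called may thus still differ. Better counted transcripts had smaller errors. Rab3gap1-201 had 37 and 34.1 in TKO and 35.1 and 35.2 in WT at D6, a difference of 0.02 (SE 0.0708). The best counted Slc38a6 transcript of this kind had 11.6 and 11.1 in TKO and 12.6 and 11.2 in WT, a difference of -0.06 (SE 0.176).

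Summing these transcripts for each gene narrowed the errors, and none of the 5 sums was higher in TKO at D0, D2, D4 or D6 by edgeR, adjusted or at an unadjusted p under 0.05. In the same fit 18.6%, 18%, 15.1% and 20.3% of all genes were called higher. At D6 the log2 difference was -0.18 for Slc38a6 (SE 0.133), -0.45 for Noct (SE 0.239), -0.00 for Rab3gap1 (SE 0.0581), -0.26 for Lrrc8d (SE 0.141) and -0.22 for Kif24 (SE 0.0891), and none passed. Noct was lower in TKO at D2, with 11.9 and 10.6 CPM against 33 and 39.3 in WT, a log2 difference of -1.69 (SE 0.189, edgeR adjusted p 2.58e-06). In the sum over all Noct transcripts the same day read 2.34 in the other direction. Kif24 was lower in TKO at D0 (-0.42, SE 0.0932, edgeR adjusted p 0.00178) and at D2 (-0.50, SE 0.0952, edgeR adjusted p 0.000525). In this fit 20.6%, 17.3%, 12.8% and 20.7% of all genes were called lower in TKO at D0, D2, D4 and D6, and 1 and 2 of 5 are no result about these genes beside that.

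At the level of whole genes, where all transcripts of a gene are added, 8 of the 10 were higher in TKO at D0 and at D2, 9 at D4 and 10 at D6. Of all 18555 genes tested, 19.4%, 18.4%, 15.1% and 20.9% were called higher on those days. The median log2 difference of the 10 genes was 2.21, 2.52, 3.40 and 5.85. Other transcripts carried most of the WT D0 count of Lrrc8d, Kif24 and Rab3gap1. The leading transcript held 11% and 7.32% of Lrrc8d counts there and 4.68% and 3.8% of Kif24 counts. For Rab3gap1 it held 24.7% and 21.8%, and that whole gene passed at D0, at 1.86. The part of these shares in the calls was not tested. Lrrc8d and Kif24 were the 2 that did not pass at D0, at -0.17 (edgeR adjusted p 0.299) and 0.14 (edgeR adjusted p 0.257). At D6 they read 1.66 and 2.52 as whole genes, against 4.18 and 7.01 for Lrrc8d-205 and Kif24-204.

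Over WT differentiation alone, from D0 to D8, 5 of 10 leading transcripts rose and 1 fell, where 17.4% of all transcripts tested were called higher and 19.1% lower. Gm10040-201 rose by 1.63 on the log2 scale (SE 0.248, edgeR adjusted p 0.000157), from 1.55 and 1.85 CPM to 5.02 and 5.53. Gm9864-201 rose by 1.23, Olfr784-202 by 0.89, Rab3gap1-205 by 0.76 and Slc38a6-208 by 0.53. D10Wsu102e-201 fell by 2.11, from 1839 and 1723 to 425 and 399. Among whole genes 5 rose, 2 fell and 3 did not pass, where 37.8% of all genes were called higher and 39% lower. For Rab3gap1 the whole gene read -0.13 (edgeR adjusted p 0.0814), and the sum without common sequence fell by 0.77 (SE 0.0576, edgeR adjusted p 9.55e-10). For Noct the whole gene read 0.11 (edgeR adjusted p 0.349), and the sum without common sequence fell by 3.21 (SE 0.225, edgeR adjusted p 3.69e-10), from 15.8 and 24.8 CPM to 2.33 and 2.07.

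The 10 leading transcripts together took 0.203% and 0.191% of all counts in WT D0 libraries and 0.405% in both TKO D0 libraries. At D6 they took 3.93% and 3.98% in TKO and 0.1% and 0.0818% in WT, and at D8 4.88% and 4.92% in TKO and 0.105% and 0.104% in WT. They held most of the counts of the 10 genes in TKO D8, where all 43 transcripts took 4.96% and 5% of the library. This is set in part by the definition, since leading transcripts were chosen by their TKO D8 count. D10Wsu102e, Gm9864, Gm10040 and Gm11127 also have only 1 transcript each. D10Wsu102e-201 made up most of the WT share at D0: without it the other 9 took 0.0332% and 0.0292%.

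The shares of the 5 of these 9 most counted in TKO D8 moved little across TKO days. Slc38a6-208 held 40.4% to 42.8% of it in the 5 TKO groups and Noct-202 35.9% to 40.8%. Rab3gap1-205 held 10.1% to 12.3%, Gm9864-201 3.47% to 4.07% and Gm10040-201 2.11% to 2.46%. In the 5 WT groups the same shares ran from 29.5% to 42.3% for Slc38a6-208, 44% to 57.5% for Noct-202, 4.85% to 6.74% for Rab3gap1-205, 1.7% to 3.19% for Gm9864-201 and 0.504% to 1.26% for Gm10040-201. Gm11127-201 did not keep its share: it went from 0.3% in TKO D0 to 0.991% in TKO D8, against 0.0131% to 0.107% in the WT groups. Lrrc8d-205 held 0.558% to 0.765% in TKO groups and 1.64% to 2.98% in WT groups. Olfr784-202 held 0.646% to 0.91% in TKO and 0.698% to 1.24% in WT, and Kif24-204 0.42% to 0.558% in TKO and 0.266% to 0.513% in WT. For 6 of the 9 transcripts, all but Slc38a6-208, Olfr784-202 and Kif24-204, the ranges of the WT and TKO groups did not overlap. Of these, Noct-202 and Lrrc8d-205 had lower shares in TKO and the other 4 higher shares; this was not tested.

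**Figure D4:**
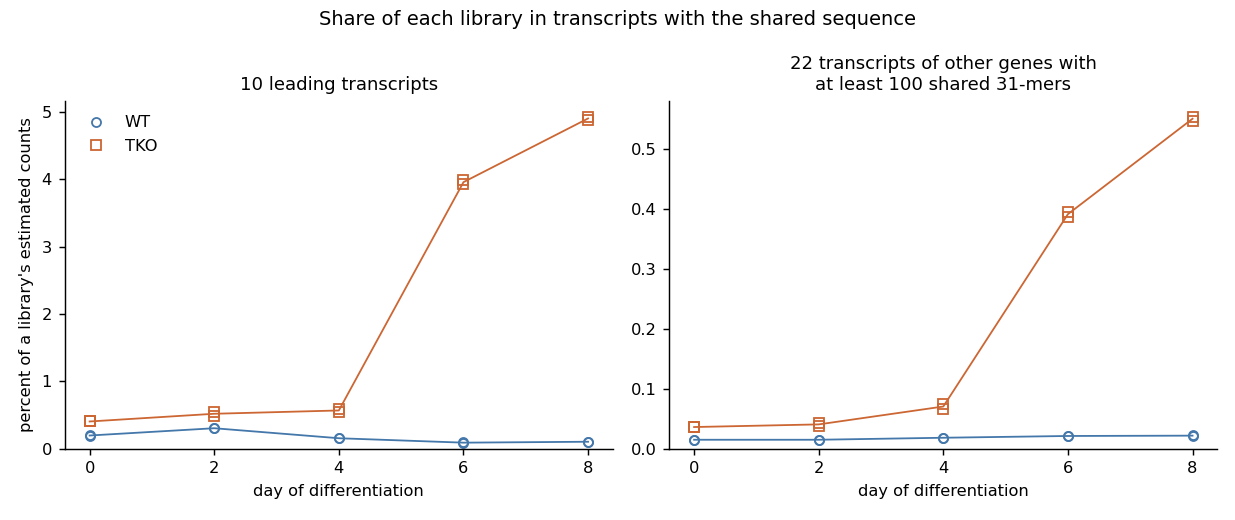
Percent of each library's estimated counts in the 10 leading transcripts (left) and in the 22 transcripts of other genes with at least 100 of the shared 31-mers (right), by day, with 1 point for each library and a line through the group mean; WT is blue circles and TKO orange squares, and the 2 vertical scales differ. Both shares are higher in the TKO libraries at D6 than at D4, on the right 0.395% and 0.387% against 0.0669% and 0.074%.

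Outside the 10 genes, 806 transcripts of 653 genes held at least 1 of the shared 31-mers, most of them only a few. Of the 748 with 1 to 9 of them, 661 were tested at D6 and 3.33% were higher in TKO, near the 3.92% of all transcripts. Of the 36 with 10 to 99, 33 were tested and 48.5% were higher. Of the 22 with at least 100, 21 were tested and 85.7% were higher, with a median log2 difference of 5.36. At D0 the 3 shares were 2.27%, 15.2% and 57.1%. Of the 29 transcripts outside the members that hold the 36-base run, 26 were tested, and 42.3% were higher at D0 and 61.5% at D6. Most of the 806 depend on D10Wsu102e-201. Without it in the definition, a choice made after seeing the data, 71 transcripts of 60 genes were left. Of those 71, 63 were tested, and 30.2% were higher at D0 and 58.7% at D6. The 3 sets above can thus hold different pieces of sequence, and not only more or less of the same piece. The members differ from such transcripts by the choice on TKO D8 counts, so this is a description only.

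**Figure D5:**
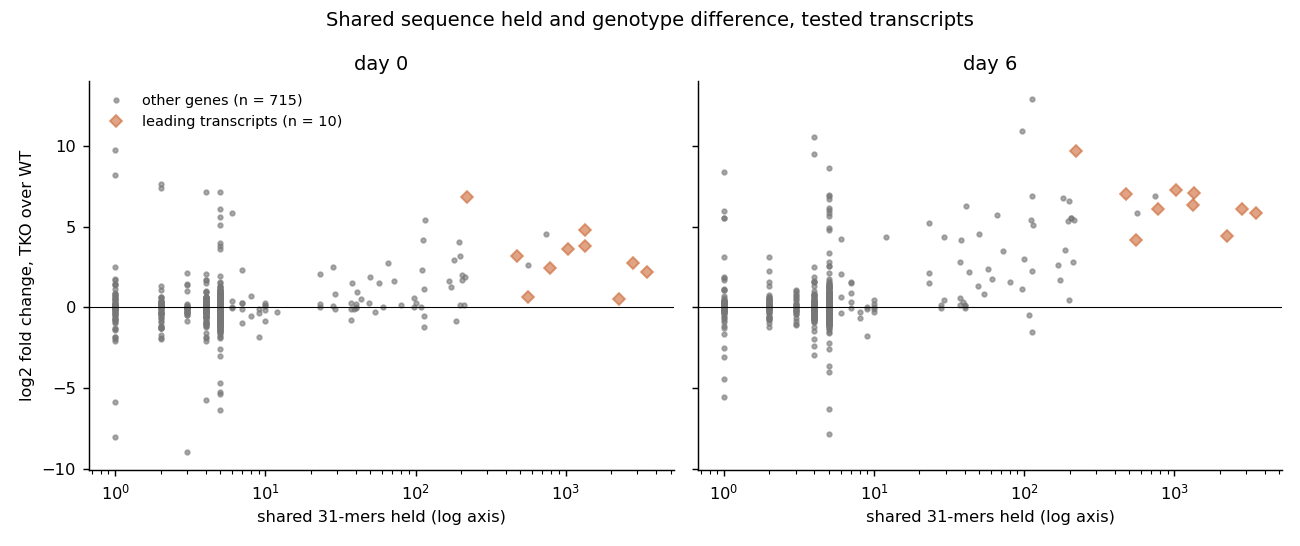
Log2 fold change of TKO over WT (vertical) at D0 (left) and D6 (right) against the number of shared 31-mers a transcript holds (log axis), for the 715 tested transcripts of other genes (grey dots) and the 10 leading transcripts (orange diamonds). Transcripts with 1 to 9 shared 31-mers scatter around 0, with medians of -0.05 and 0.01, and those with at least 100 lie mostly above it, with medians of 1.69 and 5.36.

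Among the other genes that hold common sequence, 8 were named by their TKO D8 count. Gm48368, a processed pseudogene with 740 shared 31-mers, had 174 and 169 CPM in TKO and 7.57 and 7.08 in WT at D0, and 2473 and 2339 in TKO and 23.1 and 17.3 in WT at D6. Gm48368-201 differed by 6.89 on the log2 scale at D6 (SE 0.164, edgeR adjusted p 1.06e-10). Sirt5, a mitochondrial deacylase, has 4 such transcripts, which summed to 527 and 523 in TKO and 7.98 and 8.61 in WT at D6. Wdr31 and Patj each have 1 such transcript with 205 shared 31-mers. That of Wdr31 had 141 and 137 CPM in TKO and 3.21 and 2.72 in WT at D6, and that of Patj had 130 and 144 in TKO and 3.12 and 2.78 in WT. The other 4, Ncl, Cdh1, Rps20 and Ppp2ca, hold 1 to 5 shared 31-mers. Rps20-203 and Ppp2ca-201 did not pass at D6, at -0.05 and -0.07, and Ncl-201 and Cdh1-201 were higher by 0.26 and 1.66.

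The genes whose level followed the mean of the 10 member genes most closely over the 20 libraries, by Pearson's r of log2(CPM + 1), were Sirt5 (0.99), Olfr11 (0.988), Naip6 (0.987), Xlr (0.986), Vmn1r88 (0.984) and Gm45861 (0.983). The 20 libraries fall into genotype and day groups that the points share, so r is a description. Sirt5 and Olfr11 hold up to 214 and 199 of the 31-mers of the common sequence in 1 transcript. Vmn1r88, Naip6, Xlr and Gm45861 hold none of it, although Vmn1r88 has 79 other 31-mers that occur in transcripts of the member genes. The D0 mean of Xlr was 0.306 CPM in WT libraries and 1.13 in TKO libraries, and its D8 mean was 0.393 in WT libraries and 6.37 in TKO libraries. For Gm45861 the D0 means were 0.0162 and 1.11, and the D8 means 0.0584 and 31.7.

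Of 17 genes of retroelement silencing, 5 were higher and 3 lower in TKO at D0, 2 and 6 at D2, 5 and 4 at D4, and 5 and 1 at D6, where 19.9%, 16.9%, 13.2% and 20.3% of all genes were called lower and the shares called higher are those given for whole genes. Dnmt3l, a cofactor of the de novo DNA methyltransferases, and Zfp809, a zinc finger protein that recruits silencing to retroviral primer sites, were higher on all 4 days. Dnmt3l had 542 and 532 CPM in TKO and 142 and 186 in WT at D0. Zfp809 had 16.4 and 16.6 in TKO and 13.9 and 13.5 in WT at D6. Setdb1, an H3K9 methyltransferase, was lower at D6, at 112 and 111 in TKO and 135 and 132 in WT, a log2 difference of -0.26 (edgeR adjusted p 0.000354). Trim28, the corepressor that Setdb1 works with, had 782 and 777 in TKO and 679 and 731 in WT at D6 and did not pass (edgeR adjusted p 0.0913). At D2 Trim28 was lower, at 1828 and 1721 in TKO and 2235 and 2305 in WT. That log2 difference was -0.35 (edgeR adjusted p 0.000436). Daxx and Mphosph8 were lower at D0, D2 and D4 and did not pass at D6.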

How the data were processed

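Each deposited table lists 1 library's transcripts with kallisto output: estimated counts, not scaled to depth, and TPM, both per the file headers. The submitters' processing notes name Trim Galore 0.6.2, kallisto without a version and GRCm38; the strand setting and transcript set are not given in the sources used here. Libraries were made with the TruSeq Stranded mRNA protocol from DNase-treated RNA, per the labels' protocols.

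Transcripts were matched to GENCODE M21 by identifier (116161 with the same version, 116728 in all). The 2686 without a match held 0.943% to 1.1% of counts and stayed out of tests. Estimated counts were rounded, per transcript and as gene sums, and fitted with edgeR 4.0.16 in R 4.3.3 (quasi-likelihood F test, TMM, filterByExpr over 10 groups, all 20 libraries, 10 residual degrees of freedom, Benjamini-Hochberg adjusted p under 0.05). The common biological coefficient of variation was 0.0689 for 18555 genes and 0.459 for 66407 transcripts. CPM are counts per 1e+06 after TMM. Sums without common-sequence transcripts are printed with the factors of the gene sums and were tested in a fit of their own. 31-mers and alignments (BLAST 2.17.0, E-value under 1e-10) came from the GENCODE sequences. The fits were tested on simulated data. There, many of the changes put into transcript counts stayed under the threshold, so transcripts that did not pass may still differ. Alternatives were RLE scaling, no filter, a replicate block, DESeq2 1.42.0, only the groups compared, single libraries left out, TPM, 21-mers and 51-mers.

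The members and lists were chosen with earlier results of these data known. Named were the 10 genes with their transcripts of at least 10 counts in a library, up to 8 other genes with common sequence by TKO D8 count, up to 6 genes of at least 5 CPM in a group by correlation, and fixed lists.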

Additional observations from a re-analysis of the deposited data

Results flagged for a closer look

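The genotype difference of 9 leading transcripts was larger at D6 than at D0, by edgeR's test of the difference between the 2 days with adjusted p under 0.05. On the log2 scale the increase was 3.33 for Slc38a6-208, 3.89 for D10Wsu102e-201, 3.63 for Noct-202, 3.60 for Rab3gap1-205, 2.51 for Gm9864-201, 2.27 for Gm10040-201, 3.62 for Olfr784-202, 3.56 for Lrrc8d-205 and 3.84 for Kif24-204. The test was added after the values were seen. The summed stem cell markers stood at 4949 and 4856 CPM in TKO and 5270 and 5513 in WT at D0, and at 154 and 116 in TKO and 17 and 10.5 in WT at D6; the endoderm markers stood at 277 and 306 in TKO and 16.9 and 23 in WT at D0, and at 47.3 and 61.5 in TKO and 14.7 and 11 in WT at D6. The part of either list in the result was not tested.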

How the results depend on the processing

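Leaving the common-sequence transcripts out of the gene sums changed the results most and left 5 genes: Slc38a6, Noct, Rab3gap1, Lrrc8d and Kif24. Of these, 0 were higher in TKO at D0, D2, D4 or D6 by edgeR, and 4 changed in WT from D0 to D8. With all transcripts 8, 8, 9 and 10 of 10 genes were higher and 7 changed in WT, but those counts cover other genes too. Of the 5 as whole genes, Slc38a6, Noct and Rab3gap1 were higher on all 4 days, Kif24 at D4 and D6, and Lrrc8d at D6. In WT, only Slc38a6 and Lrrc8d of the 5 changed as whole genes. The log2 differences whose sign turned were Slc38a6 (-0.05 at D0, -0.18 at D6), Noct (-0.33, -1.69, -0.34 and -0.45 at D0 to D6, -3.21 in WT D8 against D0), Rab3gap1 (-0.04 at D2, -0.00 at D6), Lrrc8d (-0.35 at D4, -0.26 at D6) and Kif24 (-0.42 at D0, -0.50 at D2, -0.22 at D6, -0.01 in WT). Only Noct at D2 and in WT and Kif24 at D0 and D2 passed among these. Several of the rest were near 0, such as Slc38a6 at D0 (SE 0.145). Whole-gene Lrrc8d at D0 ran from -0.46 (passing, without WT D0 replicate 1) to 0.17 (without WT D0 replicate 2), and Kif24 in WT from -0.10 (without WT D0 replicate 2) to 0.15; without WT D8 replicate 1 it was -0.07. With single libraries left out, the lone library of a group is assumed to vary like the others. At D2, calls were then lost for D10Wsu102e-201 (0.15 to 0.20, any D2 library) and Lrrc8d-205 (1.24 and 1.43, either WT D2 library). Whole-gene D10Wsu102e at D2 lost its call without TKO D2 replicate 2 (0.09) or WT D2 replicate 1 (0.14) or 2 (0.13). Whole-gene Gm11127 in WT lost its call without WT D0 replicate 2 (1.63) or WT D8 replicate 1 (2.20). Fitting only the groups compared ended the calls of D10Wsu102e-201 at D0 (0.54) and D2 (0.20), Gm11127-201 at D0 (6.82) and D4 (5.70) and Kif24-204 at D2 (3.03). Over all transcripts, calls at D0, D2, D4 and D6 were 4920, 3411, 2070 and 4177; they were 331, 550, 213 and 1004 from only the groups compared, with 79.5%, 76%, 72.3% and 69% higher in place of 57.1%, 63.6%, 63.1% and 62.4%, and 8647, 6119, 4832 and 7322 with DESeq2. The leading transcripts' share of member counts in TKO D8 was 98.3%, 89.7% in TPM and 99.7% with all 14 common-sequence transcripts. That share is set in part by the choice of leading transcripts on TKO D8 counts. Other-gene transcripts with common sequence numbered 806, 2234 with 21-mers, 47 with 51-mers and, chosen after seeing the data, 71 without D10Wsu102e in the definition and 22 with at least 100. Same-numbered replicates did not deviate together (correlations -0.0302, -0.0987, -0.0375, 0.134 and 0.00782), so the numbers do not pair samples; with the replicate block 8, 8, 9 and 10 genes and 9, 10, 10 and 10 leading transcripts were higher, and 7 genes changed in WT. With 2 libraries a group and divided reads, single transcript levels are uncertain.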
